A study of Rattus norvegicus with 20 samples.

Results

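The 8 arrays titled Day 14, Day 21 and Day 28 were pooled and compared with the 5 arrays titled NL, over all 1185 probes of the table. The pool held 2 arrays of Day 14, 3 of Day 21 and 3 of Day 28, so the comparison used 13 of the 20 arrays of the series. It was chosen by array title, to look for changes present before Day 35 that single days of 2 or 3 arrays could not show. The arrays measured total RNA of whole rat lung, in a series that followed neointimal vascular proliferation and pulmonary hypertension over time. Neither NL nor T is expanded in the labels, and strain, age, treatment, the event from which days were counted and the use of separate animals are not stated there. P-values therefore measure the spread between these arrays, which may be technical. The number of arrays limits the precision.

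Neointimal proliferation is the build-up of smooth-muscle-like cells and matrix on the inner side of small arteries. In the lung it narrows the vessel lumen, raises the resistance to flow and so loads the right ventricle, and it is a feature of severe pulmonary arterial hypertension. Whole lung holds epithelium, endothelium, smooth muscle, fibroblasts and blood-derived cells besides the remodelled vessels. In such bulk RNA, fewer cells of a type and less RNA per cell cannot be told apart. The files used here do not pair probes with genes. Each probe therefore goes by its identifier, with no gene, sequence or pathway, and the markers of lung cell types could not be looked up. Values are the deposited ones, centred near 0 in each array. Their scale is not stated, and differences are given in their units, not as folds.

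No probe was called different between the pooled days and NL. Called here means a Benjamini-Hochberg adjusted p under 0.05 in limma, and 0 of 1185 probes (0%) met it, with a smallest adjusted p of 0.245. An unadjusted p under 0.05 was found for 90 probes (7.59%). Of these, 46 (3.88%) had a higher mean in the pool and 44 (3.71%) a lower one. When every array was given the same interquartile range, the corresponding numbers were 48 higher and 89 lower. Leaving out NL array 2 gave 96 higher and 39 lower, and leaving out NL array 5 gave 24 and 29. Over all probes, 533 means were higher and 652 lower in the pool, and the median difference was -0.03.

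**Figure D1:**
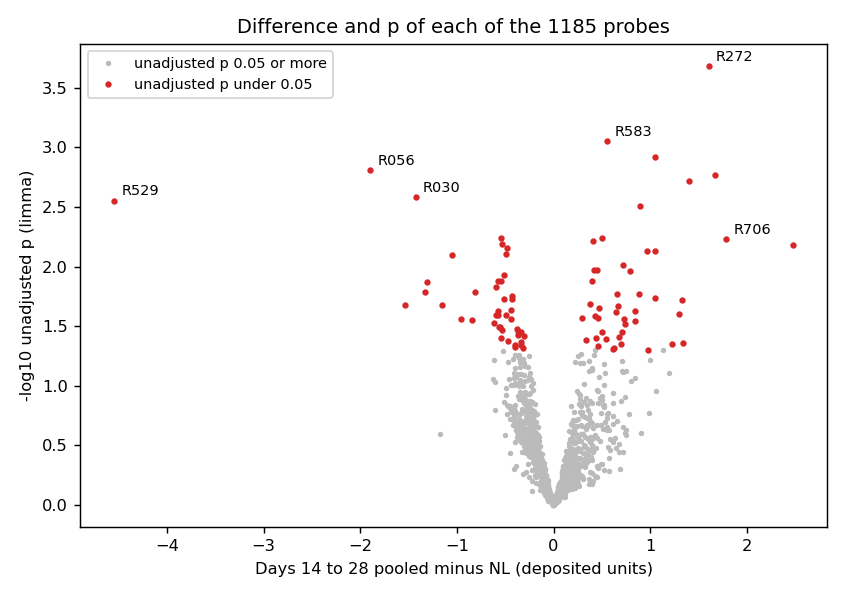
Each point is 1 of the 1185 probes; the x axis is the mean of the 8 pooled arrays minus the mean of the 5 NL arrays in deposited units, and the y axis is -log10 of the unadjusted limma p. The 90 red points have an unadjusted p under 0.05, split into 46 on the right and 44 on the left; R272 is the highest point and R529, at -4.54, lies farthest left.

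Pooling narrowed the error of the differences, as more arrays in a group do by themselves. The pooled fit treats the days as replicates of a single condition. The median standard error was 0.22 for the pool against NL, where it was 0.33 for Day 14, 0.29 for Day 21 and 0.29 for Day 28 against NL in a fit of the same 13 arrays by day. The 95% interval of the difference had a median half-width of 0.46. It lay wholly between -1 and 1 unit for 943 probes (79.6%) and between -2 and 2 units for 1147 probes (96.8%). For the other probes a larger difference was not excluded by its own interval. These intervals are per probe and are not adjusted for the number of probes.

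Limma array weights gave 250 calls, 200 of them higher, from an iteration that stopped before convergence, and gene-by-gene weights, chosen after seeing the data, gave 117 calls, 97 of them higher. The first weights ran from 0.25 in Day 21 array 11 to 8.76 in NL array 5. Leaving out NL array 2 gave 2 calls, R439 and RG434, and leaving out Day 14 array 8 gave 1 call, R272.

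R272 had the smallest p of all probes. Its NL arrays 2 to 6 read 0.33, -0.06, -0.07, -0.29 and -0.27. Day 14 arrays 7 and 8 read 1.21 and 0.43, Day 21 arrays 9 to 11 read 2.93, 1.18 and 1.72, and Day 28 arrays 12 to 14 read 1.65, 1.04 and 2.10. All 8 pooled arrays lay above all 5 NL arrays, the lowest being Day 14 array 8 and the highest Day 21 array 9. The mean was 1.53 ± 0.76 (SD, n = 8) in the pool and -0.07 ± 0.25 (n = 5) in NL, a difference of 1.60 (SE 0.33, 95% interval 0.91 to 2.30) that did not pass the adjusted threshold (limma adjusted p = 0.245). This probe had been called at Day 21 in earlier results from the same arrays, so its place here is not independent. Without Day 14 array 8 the difference was 1.76 and the adjusted p 0.0450, the 1 call among the fits that left out an array for this probe. Normal Day 0, left out of the comparison, read 1.69 and lay inside the range of the pool.

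R583 came next among probes with a higher mean in the pool. Its NL arrays 2 to 6 read -0.04, 0.03, -0.20, -0.12 and -0.02. The pooled arrays ran from 0.28 (Day 21 array 9) over a median of 0.36 to 0.81 (Day 14 array 7). The groups did not overlap, and the 2 Day 14 arrays read highest, at 0.81 and 0.75. The means were 0.48 ± 0.21 (n = 8) and -0.07 ± 0.09 (n = 5), and the difference was 0.55 (SE 0.13, limma adjusted p = 0.375). Normal Day 0 read 0.44 for R583, again inside the range of the pool.

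The pool lay wholly above NL for 5 probes (0.422% of those tested) and wholly below it for 1 (0.0844%). The 5 were R272, R583, R706, R553 and R610, and the 1 was R056. R706 read 0.42 to 4.73 in the pool, with a median of 1.79, and -0.12 to 0.28 in NL. Its difference was 1.79 (SE 0.55, limma adjusted p = 0.470), with Day 21 array 9 at 4.73 and the next pooled array, Day 14 array 8, at 2.28. R553 read 0.16 to 0.62 in the pool and -0.06 to 0.14 in NL. R610 read -0.04 to 1.38 in the pool and -0.67 to -0.16 in NL. Normal Day 0 lay nearer the mean of the pool than that of NL for 5 of these 6 probes, and for 436 of all 1185 (36.8%). The exception was R706, where it read 0.16. The 6 were picked because the pool and NL do not overlap, so this count describes them only. For R056, Normal Day 0 read 0.83, above the range of the pool and inside that of NL.

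**Figure D2:**
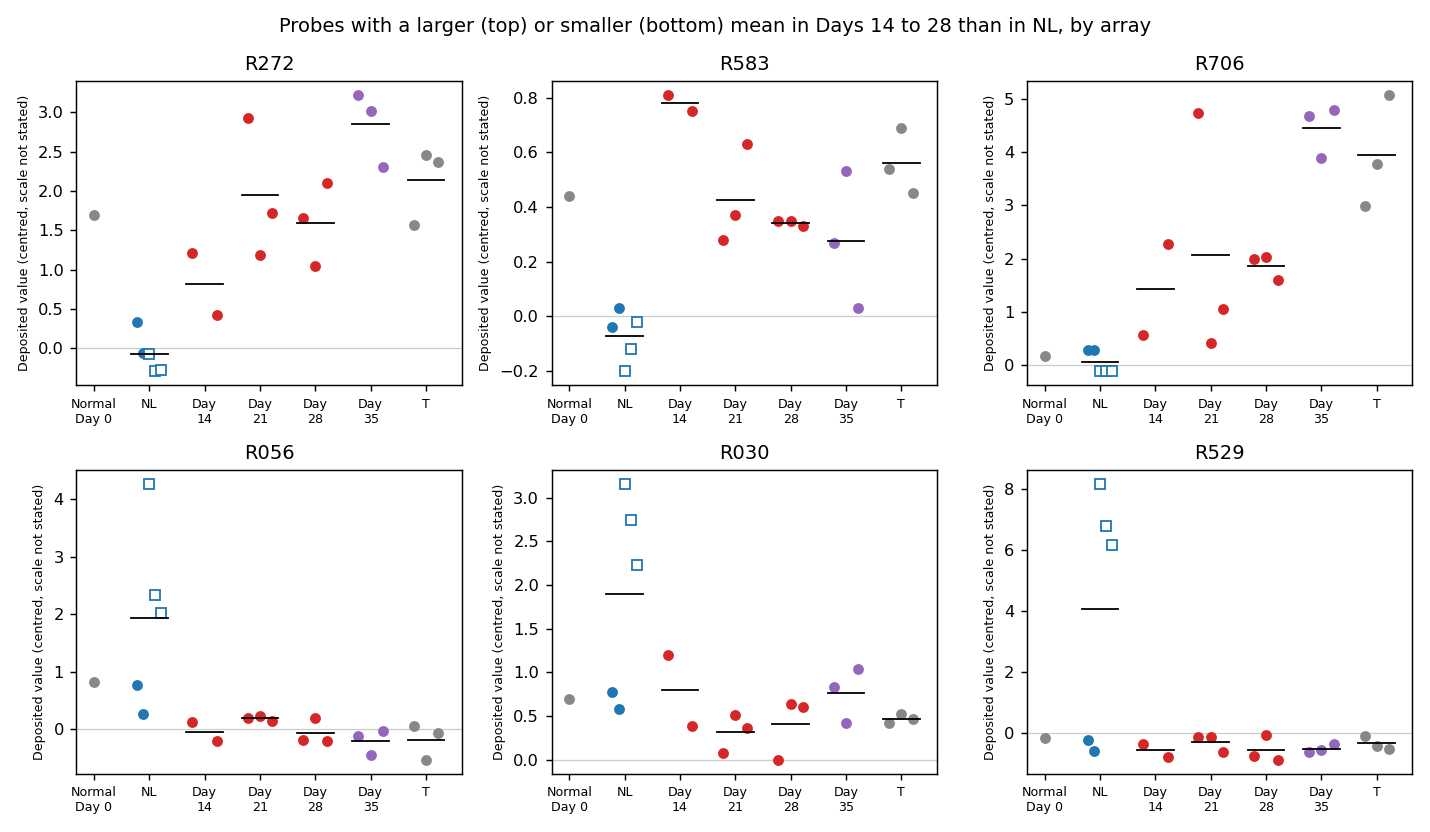
Deposited values (y axis, centred, scale not stated) of 6 probes in each of the 20 arrays, by group (x axis); bars are group means, blue is NL, red the pooled days, violet Day 35 and grey Normal Day 0 and T, and open squares mark NL arrays 4 to 6. In the top row every red point lies above every blue one; in the bottom row the NL means are set by the 3 open squares, while NL arrays 2 and 3 lie near or among the red points.

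The 2 probes named on the lower side by the rule, R056 and R030, were separated mainly from NL arrays 4 to 6. For R056, NL arrays 4 to 6 read 4.27, 2.33 and 2.02, and NL arrays 2 and 3 read 0.77 and 0.26. The pooled arrays ran from -0.21 over a median of 0.13 to 0.23, so all of them lay below NL, but by as little as the step from 0.23 to 0.26. The difference was -1.89 (SE 0.49, limma adjusted p = 0.375). Set against NL arrays 2 and 3 it was -0.48, and against NL arrays 4 to 6 it was -2.84. Normal Day 0 read 0.83 for this probe, between those 2 sets of NL arrays.

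For R030, NL arrays 4 to 6 read 3.16, 2.74 and 2.23, and NL arrays 2 and 3 read 0.78 and 0.58. The pooled arrays ran from 0.00 over a median of 0.45 to 1.20. NL arrays 2 and 3 lay within that range and NL arrays 4 to 6 above it. The difference was -1.42 (SE 0.39, limma adjusted p = 0.410), with -0.21 against NL arrays 2 and 3 and -2.24 against NL arrays 4 to 6.

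R529 had the largest difference of all probes, -4.54 (SE 1.26, limma adjusted p = 0.410), and was singled out after its values were seen. NL arrays 4 to 6 read 8.19, 6.80 and 6.17. All 17 other arrays, NL arrays 2 and 3, Normal Day 0, Day 35 and T included, read between -0.90 and -0.08. The difference was -0.06 against NL arrays 2 and 3 and -7.53 against NL arrays 4 to 6. With a common interquartile range the differences from all NL arrays were -8.87 for R529, -2.97 for R030 and -3.30 for R056, none of them called. R529 was the 1 probe with a gap of over 2 units between NL arrays 4 to 6 and all other arrays, and 6 probes had a gap of over 1 unit, R056 and R030 among them.

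Over the 46 probes with a higher mean at an unadjusted p under 0.05, the median difference was 0.71, with 0.385 against NL arrays 2 and 3 and 0.92 against NL arrays 4 to 6. Over the 44 with a lower mean it was -0.53, with -0.31 and -0.59. The direction against NL arrays 2 and 3 was that of the whole comparison for 41 of the 46 and 40 of the 44, and for 657 of all 1185 probes. The NL arrays served to choose the 90, so these counts describe them only. Without NL arrays 4 to 6, 67 probes had an unadjusted p under 0.05, 5 higher and 62 lower, 14 of them among the 90 with the same sign, and 0 were called. What NL arrays 4 to 6 share is not given in the labels, and its part in the differences was not tested.

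Normal Day 0 lay nearer the pool mean than the NL mean for 30 of the 46 higher probes (65.2%), 17 of the 44 lower ones (38.6%) and 436 of all 1185 (36.8%). It is a single array, and the NL values served to choose the higher and lower probes, so these shares are descriptions. The reason for them was not tested.

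The arrays also differed in the spread of their values. The interquartile range was 1.18 ± 0.51 (SD, n = 8) in the pool and 0.92 ± 0.50 (n = 5) in NL. Day 14 array 8, Day 21 array 11 and Day 28 arrays 12 and 14 read 1.45, 1.75, 1.59 and 1.64. The other pooled arrays read 1.21, 0.64, 0.66 and 0.49 (arrays 7, 9, 10 and 13). NL arrays 2 to 6 read 1.36, 1.49, 0.91, 0.42 and 0.42. Both groups thus held wide and narrow arrays, and their means differed by 0.26, less than the spread within either group (two-sided exact permutation test over 1287 splits, p = 0.373). The part of this spread in the probe differences was not tested. The 4 wide pooled arrays and NL array 3 had formed, with a T array, a cluster of 6 in earlier results. With that cluster as a block the difference of R272 was 1.63 and 0 probes were called. With its 5 arrays left out it was 1.67 and again 0 were called.

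**Figure D3:**
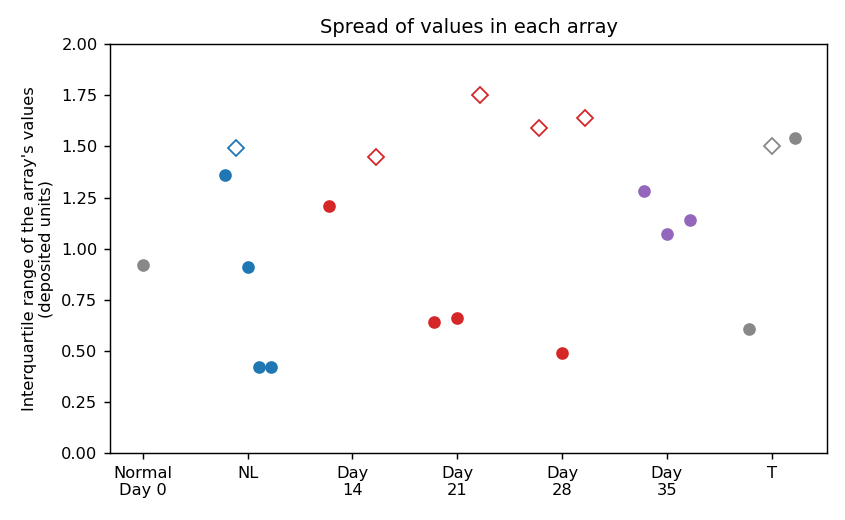
Interquartile range of the 1185 values of each array (y axis, deposited units) by group (x axis), 1 point per array; open diamonds are the 6 arrays of the cluster known from earlier results. The pooled days (red) and NL (blue) both hold wide and narrow arrays, from 0.49 to 1.75 and from 0.42 to 1.49.

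R439 and RG434, the 2 probes called without NL array 2, had scores well above 0 in both groups. R439 read 3.69, 1.66, 2.77, 1.88 and 1.24 in NL arrays 2 to 6, and 2.58 to 4.33 in the pool with a median of 3.80. RG434 read 4.73, 3.01, 2.50, 1.92 and 1.52 in NL arrays 2 to 6, and 3.67 to 5.26 in the pool with a median of 4.42. In each, NL array 2 was the highest NL array and lay within the range of the pool. With all NL arrays the differences were 1.40 (SE 0.37) for R439 and 1.67 (SE 0.43) for RG434, both with a limma adjusted p of 0.375.

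The 3 pooled days were then compared with each other, in a limma moderated F-test of Day 14, Day 21 and Day 28 that used NL only for the estimate of the spread. No probe was called (0%), and the smallest adjusted p was 0.999. An unadjusted p under 0.05 was found for 4 probes (0.338%), well under the 1 in 20 that chance alone gives. The lack of calls is therefore no evidence that the days are alike, and the reason for the low share was not tested. Leaving out 1 array gave 1 to 28 probes at an unadjusted p under 0.05. The highest number came without Day 14 array 8, where 7 probes were called and Day 14 was represented by array 7 alone, assumed to vary like the other groups. The same test with array weights that did not converge called 149 probes, and with gene-by-gene weights 0. Spearman's correlation across the 1185 probes had a median of 0.751 in the 7 pairs of pooled arrays from the same day and of 0.843 in the 21 pairs from different days. It was 0.756 in the 40 pairs of a pooled with an NL array. The pairs share arrays and have no test, so these correlations are descriptions.

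The 4 probes were R368, RG111, R515 and RG468. R368 read 2.47 and 1.43 at Day 14, 0.96, 0.91 and 1.24 at Day 21 and 1.06, 0.51 and 0.94 at Day 28. R515 read 2.80 in Day 14 array 7 and between -0.25 and -0.02 in the other 7 pooled arrays, so 1 array set its day mean. RG111 read 0.95, -0.06 and 1.41 at Day 28 and between -0.54 and 0.16 in the earlier days, where Day 28 array 13 lay among the earlier arrays. RG468 read 1.56 and 2.85 at Day 14, 0.06, 1.19 and 1.54 at Day 21 and 1.12, 0.38 and 0.95 at Day 28. Its Day 14 mean of 2.21 was close to the NL mean of 2.16 ± 0.55 (n = 5), and the means of the later days were 0.93 and 0.82. Its whole pool differed from NL by -0.95 (SE 0.39, limma adjusted p = 0.566).

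Day 35 was set against the pool to show which probes read higher at the latest labelled day than in the days before it. The contrast uses no NL value in its means. In limma, 3 probes (0.253%) were higher at Day 35 and 0 (0%) were lower, and an unadjusted p under 0.05 was found for 64 higher (5.4%) and 19 lower (1.6%). That split was 68 and 41 after quantile normalization, 73 and 58 with the cluster of 6 arrays as a block, and 65 and 7 without Day 35 array 16. The 3 Day 35 arrays lay wholly above the 8 pooled arrays for 33 probes (2.78%) and wholly below for 9 (0.759%). The 3 called were R511, R525 and R628; R511 and R525 had stood out at Day 35 in earlier results from these arrays.

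R511 read 2.21, 2.08 and 2.12 in Day 35 arrays 15 to 17. In the pool it ran from -0.34 over a median of -0.04 to 1.24, the highest being Day 21 array 9 and the next 0.31 in Day 28 array 13. Every Day 35 array lay above every pooled array. R511 was higher at Day 35 by 2.00 (SE 0.25, limma adjusted p = 0.000626). Against NL the pool differed by 0.29 for this probe, with a 95% interval from -0.19 to 0.78. R511 was named because its pooled values lay low against Day 35, which favours a small difference from NL. The same holds for R525 and R628. The interval is also not adjusted for the number of probes, so no earlier shift is judged from it. That interval does not cover a step that began only at Day 21 or Day 28. The day means were -0.12 at Day 14, 0.26 at Day 21 and 0.19 at Day 28, and Day 21 array 9 alone read above all NL arrays by over 1 unit.

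R525 read 2.16, 1.58 and 1.79 at Day 35 and from 0.09 over a median of 0.355 to 1.02 in the pool. The groups did not overlap, and the highest pooled arrays were Day 21 array 9 at 1.02 and Day 28 arrays 12 and 14 at 0.92 and 0.87. The difference was 1.33 (SE 0.23, limma adjusted p = 0.0145). Its day means were 0.16 at Day 14, 0.52 at Day 21 and 0.73 at Day 28, and the whole pool differed from NL by 0.42 with a 95% interval from -0.000221 to 0.85.

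R628 read 2.14, 0.87 and 1.97 at Day 35 and from -0.22 over a median of 0.25 to 0.65 in the pool. The groups did not overlap, with Day 35 array 16 closest to the pool. The difference was 1.40 (SE 0.27, limma adjusted p = 0.0293), and the pool differed from NL by 0.28 with a 95% interval from -0.13 to 0.69. In T, which was not part of this contrast, R628 read 0.37 ± 0.20 (n = 3) and R525 read 0.69 ± 0.14, both inside the range of the pool, while R511 read 0.97, 2.68 and 2.05, with 2 of the 3 T arrays above that range.

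**Figure D4:**
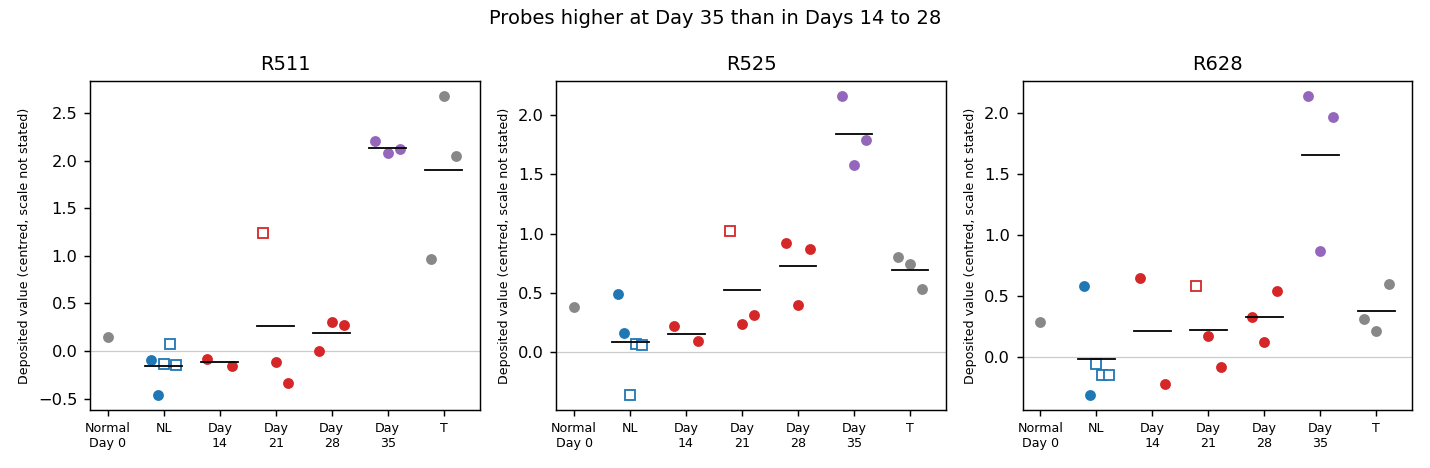
Deposited values (y axis, centred, scale not stated) of the 3 probes called higher at Day 35 than in the pooled days, in each of the 20 arrays by group (x axis); bars are group means, colours are as in the plot of 6 probes, blue open squares mark NL arrays 4 to 6 and the red open square Day 21 array 9. All 3 Day 35 arrays (violet) lie above all 8 pooled arrays (red), and for R511 the red square at 1.24 lies apart from the other pooled arrays.

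None of the 3 was called with a common interquartile range, where the differences were 1.72 for R511, 1.14 for R525 and 1.23 for R628. R628 lost its call without any 1 of Day 14 array 8, Day 21 arrays 10 and 11, Day 28 arrays 12 and 13 and Day 35 arrays 15 and 17, and R525 without Day 35 array 15, where 1 call was left. R628 was also lost with the cluster of 6 arrays as a block (adjusted p = 0.0954, with R184 and R707 called besides R511 and R525), without NL arrays 4 to 6 (adjusted p = 0.104) and without Day 14 (adjusted p = 0.0659, where R525 was lost too). Leaving out NL array 2 or Day 35 array 17 gave 5 calls, Day 28 array 14 gave 7 and Day 21 array 9 gave 10. R272 and R706, which lay above NL in the whole pool, read higher still at Day 35, by 1.32 (SE 0.38, limma adjusted p = 0.196) and by 2.63 (SE 0.62, adjusted p = 0.105), neither past the threshold. Day 21 array 9 read highest of the pooled arrays for both, so leaving it out could only raise these differences. Without it both were among the 10 calls, with differences of 1.52 (SE 0.30, limma adjusted p = 0.0240) and 3.04 (SE 0.37, adjusted p = 0.000249). For R583 the Day 35 arrays read 0.27, 0.53 and 0.03, and the difference from the pool was -0.21 (SE 0.16).

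Day 21 array 9 read highest of the 8 pooled arrays for R272, R706, R511 and R525. For R706 its 4.73 lay among the Day 35 arrays, which read 4.68, 3.90 and 4.80. Over all probes, its median Spearman correlation with the 3 Day 35 arrays was 0.853, where the other pooled arrays gave 0.707 to 0.858. With the NL arrays it was 0.730, where the other pooled arrays gave 0.726 to 0.770. Array 9 thus lay inside both ranges, near the upper end of the first and near the lower end of the second.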

How the data were processed

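The deposited table of processed array values was used as it is. Per the values, it gives 1 score per probe and array, centred near 0; the authors' platform, normalization and log base were not given in the sources used here, so the deposited scores were treated as log-like. The plan had assumed a log scale; no test was changed. Groups came from array titles. The pool and the lists were chosen with earlier results of these data known. Two-group linear models over the 13 arrays, 4 groups for the F-test, and 3 groups over 16 arrays for Day 35, were fitted to all 1185 probes without a filter in limma 3.58.1 (R 4.3.3, lmFit and eBayes). Tests were two-sided, with Benjamini-Hochberg adjustment over all probes and a threshold of 0.05. The fits were tested on simulated data with independent noise and a single spread per probe. Those data held no array-wide differences in spread, no cluster of arrays and no split among NL arrays, so the test does not cover them. No batch is given. The rule named the 2 probes of smallest p per direction; probes in counts of 5 or fewer, R706 and R529 were named besides. Gene lists and markers fixed for the case of a gene table were not used. Alternatives were other normalizations, scalings, filters, a floor, variance settings, array weights, other fits and arrays left out. Python 3.11.15 with matplotlib 3.10.9 drew the figures.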

Additional observations from a re-analysis of the deposited data

Results flagged for a closer look

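Tests for a single outlying array were run on the named probes and on the interquartile range, in the pool and in NL. Of 36 such tests, 5 found an array apart, where chance gives about 1 in 20 and the probes had partly been chosen for such values. Day 21 array 9 stood apart in the pool for R706 (4.73, next 2.28) and R511 (1.24, next 0.31). Day 14 array 7 stood apart for R368 (2.47, next 1.43) and R515 (2.80, next -0.02). NL array 2 stood apart in NL for R628 (0.58, next -0.06).

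Arrays outside the comparison of the pool with NL also read above every NL array for some of the 17 named probes. The Normal Day 0 array did so for R272 (1.69, highest NL 0.33), R583 (0.44, highest NL 0.03), R511 (0.15, highest NL 0.07), R368 (1.11, highest NL 0.81), R553 (0.46, highest NL 0.14) and R610 (0.06, highest NL -0.16). The lowest T array did so for R706 (2.99, highest NL 0.28), R272 (1.57), R583 (0.45), R511 (0.97), R525 (0.53, highest NL 0.49), R368 (1.03) and R553 (0.15). All of these probes had a higher mean in the pool than in NL, and low NL values favour such readings.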

How the results depend on the processing

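For the pool against NL, the number of calls stayed at 0 in 27 of 31 alternatives. It was 250 with array weights and 117 with gene-by-gene weights, and 0 to 2 with 1 array left out. Where 0 were called, the smallest limma adjusted p ran from 0.0527 (R272, trended and robust variances) to 0.778 (without NL array 6). It was 0.0572 without Day 14 and 0.0644 after quantile normalization. Quantile normalization also gave 163 probes at an unadjusted p under 0.05, 74 higher and 89 lower. R272, R583 and R706 kept their direction in all 31. R056, R030 and R529 ran from -3.30 to -0.48, from -2.97 to -0.21 and from -8.87 to -0.06, the smallest sizes coming without NL arrays 4 to 6. For R272 the difference ran from 1.31, with Normal Day 0 added to NL, to 2.03, with a common interquartile range. Its adjusted p ran from 0.000404 to 0.778, and both weightings and the fit without Day 14 array 8 called it. Among the pooled days, 149 probes were called with array weights, and 0 to 7 with 1 array left out. At Day 35 against the pool, the 3 calls became 6 after quantile normalization, 5 after median centring, 0 with a common interquartile range, 5 with a filter at the median, 6 with a floor at the 20th percentile, 7 with trended and robust variances, 244 with array weights, 26 with gene-by-gene weights, 1 without Day 14, and 1 to 10 with 1 array left out. The cause of these changes was not tested. The difference in interquartile range ran from 0.13 to 0.40 with 1 array left out. Gene-by-gene weights were added after seeing the data. The labels give no pairing of arrays, so no paired analysis was made. Signal over background is not given in the table, so low values could not be told from background.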
